A study of Mus musculus with 6 samples.

Results

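The genes described here encode the machinery that carries proteins into mitochondria, measured by RNA-seq in activated mouse B cells with and without hnRNPL. Members were chosen by name: every gene whose symbol began with Timm or Tomm and a number, together with Pam16, Dnajc19, Grpel1, Hspa9, Chchd4, Gfer, Samm50, Mtx1, Mtx2, Pmpca and Pmpcb, with names marked as pseudogenes left out. This gave 37 of the 55421 genes in the table. The name rule also took in Tomm6os, a non-coding RNA antisense to Tomm6, which is not part of the import machinery.

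Most mitochondrial proteins are made in the cytosol and enter through the TOM complex, the gate of the outer membrane. From there the routes part: TIM23 and its motor take precursors with a presequence into the matrix, where the processing peptidase removes the presequence, and TIM22 inserts carrier proteins into the inner membrane with the help of the small TIM chaperones. The MIA disulfide relay traps cysteine-rich proteins in the intermembrane space, and the SAM complex places barrel-shaped proteins in the outer membrane. Lymphocytes that leave rest enlarge and grow their mitochondria, which calls on all of these routes.

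The libraries compared were 3 WT (CD21-cre) and 3 hnRNPL-deficient (hnRNPL F/F CD21-cre). Both groups carried the cre transgene, expressed from the mature B cell stage under the CD21 promoter, and the Rosa mT/mG reporter, which turns a cell GFP+ once cre has acted. Splenic B cells were activated ex vivo for 24 h with 5 µg/ml LPS and 5 ng/ml IL-4, and GFP+ cells were sorted for poly(A) RNA, so cells in which the reporter was not recombined were not measured. Mice of both sexes, over 6 weeks old, were used. One mouse gave one library, and the labels call the libraries of a group replicates. The comparison asks how loss of hnRNPL, an RNA-binding protein that regulates splicing, is reflected in the RNA of these genes.

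Hnrnpl itself stood at 24371, 25579.7 and 24174 normalized counts in WT and 2178, 1519 and 1297 in hnRNPL-deficient cells, 6.74% of the WT mean. Reads on genes ranged from 40395186 to 75180749, with hnRNPL-deficient replicate 3 the shallowest. The B cell markers Cd79a, Cd79b, Ms4a1, Cd22, Pax5 and Cr2 were expressed in every library, of which Cd22 and Ms4a1 fell and Cr2 rose (limma). T cell markers summed to at most 11.7 normalized counts, NK cell markers to at most 4.11 and neutrophil markers to at most 0.765, with S100a8, S100a9, Elane and Ncr1 at 0 throughout. The 5 myeloid markers summed to 260.0 to 331 in WT and 1239 to 1382 in hnRNPL-deficient cells, nearly all of it Adgre1 (236, 282 and 315 against 1217, 1337 and 1369), while Lyz2 and Cd14 were at or near 0. The 5 erythroid markers summed to 16.1 to 33.7 and 52.3 to 83.8, with Hbb-bt the 1 that rose, and the 4 plasma cell markers to 1639.8 to 1838 and 1389 to 1908, with Jchain the 1 that fell. The part of Adgre1, Hbb-bt and Jchain in the results that follow was not tested. Xist was high in WT replicate 3 and hnRNPL-deficient replicate 2 and at most 7.21 in the other libraries, so each group held 1 such library.

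Of the 37 members, 34 averaged at least 10 normalized counts and were tested. With limma on log2(normalized count + 1) and adjustment over all 17640 tested genes, 8 members fell and 2 rose at an adjusted p under 0.1, while 24 did not pass. Over all tested genes 7.97% fell and 10.0% rose by the same rule. The genes that fell were Timm8a1, Chchd4, Timm23, Tomm5, Hspa9, Timm10, Tomm22 and Timm17a, and those that rose were Gfer and Timm21. Only 1 member in each direction also reached 1.5-fold, Timm8a1 downward and Gfer upward, against 4.08% and 7.28% of all tested genes.

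The mean was lower in hnRNPL-deficient cells for 27 of the 34 tested members, 79.4%, against 52.7% of all tested genes, and the median log2 difference (hnRNPL-deficient minus WT) was -0.23 against -0.03. The WT and hnRNPL-deficient values did not overlap for 16 members on the lower side and 3 on the higher side, where 16.3% and 17.7% of all tested genes did not overlap. The count of members that fell rested on every library: it was 1, 0 and 3 without WT replicate 1, 2 and 3, and 4, 5 and 3 without hnRNPL-deficient replicate 1, 2 and 3. The share of all tested genes that fell was also smaller in these fits, at 5.99%, 3.79% and 3.79% and at 5.54%, 5.66% and 5.66%. Without WT replicate 2, limma gave 7 of 34 members an unadjusted p under 0.05 on the lower side, against 10.5% of all tested genes in that fit. RNA was measured in bulk, so fewer cells of a type and less RNA per cell cannot be told apart.

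**Figure D1:**
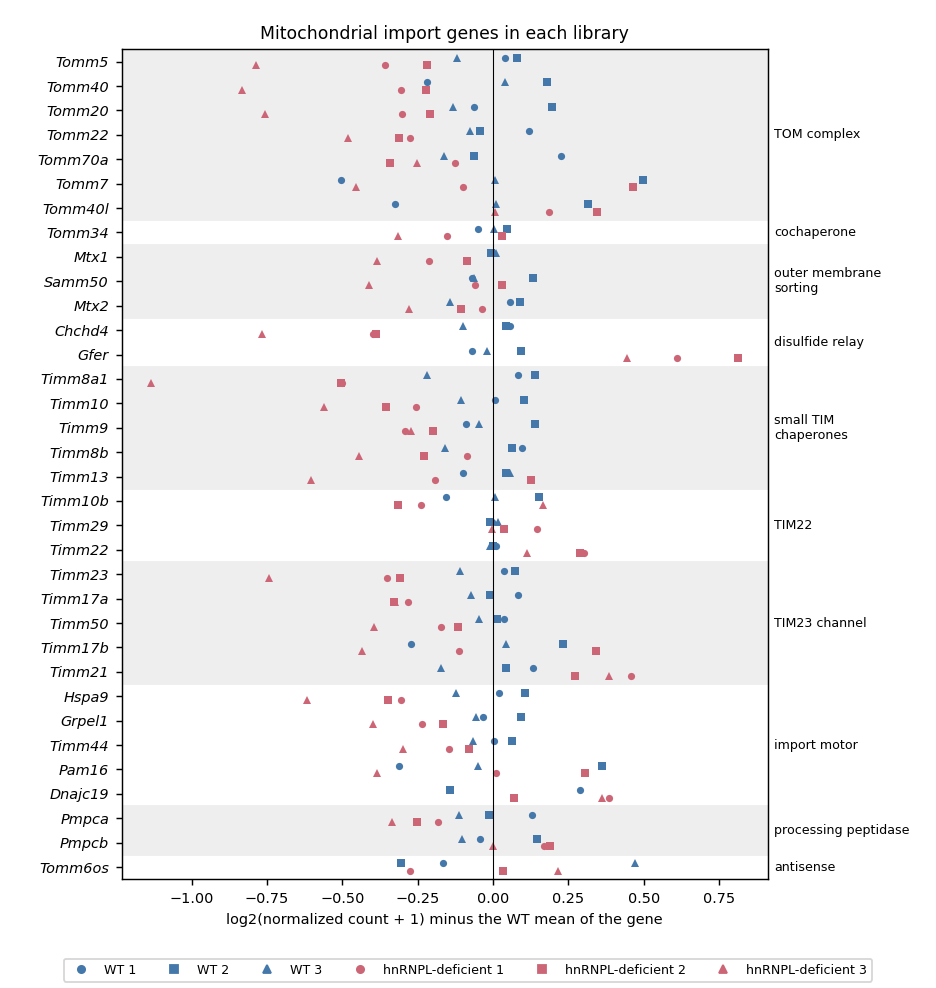
Level of each of the 34 tested members in each library, as log2(normalized count + 1) minus the WT mean of that gene; blue marks are WT and red marks hnRNPL-deficient libraries, with 1 symbol per replicate and shaded bands separating roles. Most red marks lie left of 0, with hnRNPL-deficient replicate 3 (triangles) farthest left for many genes, while Gfer, Timm21 and Timm22 have all 3 red marks to the right of the blue ones.

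The hnRNPL-deficient replicate 3, the shallowest library, was the lowest of the 6 libraries for 21 of the 34 tested members, or 61.8%, against 25.6% of all tested genes. It was the lowest of the 3 hnRNPL-deficient libraries for 27 of 34 members, against 41.1% of all tested genes. Its median log2 distance from the WT mean over the members was -0.39, compared with -0.18 and -0.11 for the other two hnRNPL-deficient libraries, and over all genes it was -0.01. The WT libraries stood at 0.00, 0.08 and -0.06. Without hnRNPL-deficient replicate 3 the median log2 difference of the members was -0.15, and 24 of 34 means were lower.

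Promoter windows from RefSeq on GRCm38.p6, from 250 bases before to 50 after an annotated start, were held for 33 of the 37 members as 35 windows. They were searched on both strands for 3 sets of letters known from promoters of mitochondrial genes. CCGGAAG, the core bound by ETS factors, was in 15 of 35 member windows (42.9%), against 18.4% of windows of tested genes and 8.86% of all windows. CACGTG, the E-box bound by MYC and its relatives, was in 6 of 35 (17.1%), against 10.2% and 7.15%. A form of the NRF1 site, GCGC and again GCGC with any 2 bases between, was in 4 of 35 (11.4%), against 13.2% and 6.23%. None of the 3 contains another, but several can lie in 1 window.
The stretches below are shown because they come from genes that fell. Further CCGGAAG matches of Timm10 (positions 13 and 16) and Tomm22 (positions -47 and -44) are not printed. On each line only the motif it names is capitalised, so the E-box line of Timm10 also holds CCGGAAG in lower case. Capitals mark the matched letters, each line is 30 bases read 5′ to 3′ on the strand of its gene, CTTCCGG is CCGGAAG on the other strand, and the position is that of the first capital relative to the annotated start, negative before it:
Chchd4, NRF1-like, position -196, chr6:91473600-91473629, minus strand: tttcactggtGCGCGTGCGCgctgcaagat
Timm8a1, E-box, chrX:134541629-134541658, position 24, minus strand: ccgtcacccagaCACGTGaaggtcggcaag
Timm8a1, E-box, chrX:134541889-134541918, position -236, minus strand: ccttcagtggacCACGTGggatgaagcaac
Timm10, E-box, position 28, chr2:84827037-84827066, plus strand: ccggaagtgaccCACGTGcttcttatttcg
Timm10, ETS-like, position -16, chr2:84826993-84827022, plus strand: ggtcggcgttttCTTCCGGatcaaagaaga
Timm23, ETS-like, chr14:32201864-32201893, position 10, minus strand: gggagccggcgcCCGGAAGgtcagcgtggt
Timm23, ETS-like, chr14:32201921-32201950, position -47, minus strand: tcgcgcttcccaCTTCCGGgccgcacacag
Tomm22, ETS-like, position 5, chr15:79670861-79670890, plus strand: tgctctcttccgCTTCCGGtgtcctacagc

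Windows with and without these letters occurred among members that passed. The windows of Timm17a, Tomm5 and Gfer, which passed, held none of the 3. Among members that were tested and did not pass, CCGGAAG was in the windows of 10, including Mtx1, Pmpca, Pmpcb and Tomm70a. CACGTG was in those of 3 (Timm9, Tomm20 and Tomm6os) and the NRF1-like letters in those of 3 (Pam16, Timm8b and Tomm20). Timm21, Hspa9, Tomm40l and Tomm7 had no entry in the promoter table. The start of Gfer lies 78 bases from that of the oppositely oriented gene Noxo1, and the start of Chchd4 157 bases from that of Tmem43. Such neighbours are not particular to these genes. Timm23, which fell, lies 51 bases from Parg, and Pmpca and Timm17b, which did not pass, lie 23 and 88 bases from Entr1 and Pqbp1. These distances are between GENCODE starts, which can differ from the RefSeq starts of the windows. A match says only that these letters occur in the window.

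Per kilobase of exon, the only scale on which levels are compared between genes here, members that passed the filter spanned from 16.9 normalized counts per kb for Tomm6os to 7305 for Hspa9, the mitochondrial Hsp70, in WT. The length used is that of all annotated exons of a gene together, which can exceed that of the transcript expressed, so ranks are approximate. Hspa9 led, followed by the channel gene Timm23 at 5018 ± 328 (SD, n = 3), the small TOM subunit Tomm5 at 3977 ± 287 and the receptor Tomm22 at 2904 ± 214. Timm8b, Timm8a1, Tomm20 and Tomm40 came next, between 2000.1 and 1839 per kb, closer to each other than the spread among the WT mice. The leading 4 genes kept their order in hnRNPL-deficient cells at 5456, 3655, 2935 and 2269 per kb. Further down, Timm8a1 moved from rank 6 to rank 10 of 37 and Gfer from rank 20 to rank 14.

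**Figure D2:**
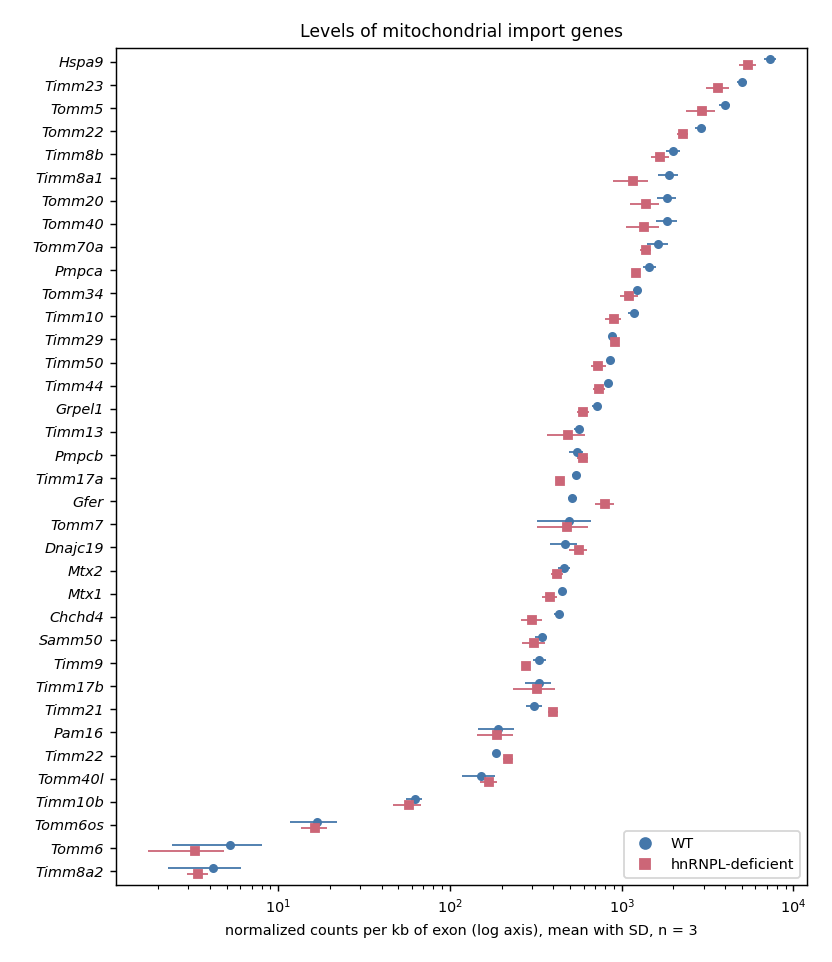
Normalized counts per kb of exon on a log axis, mean with SD of 3 libraries, for WT (circles) and hnRNPL-deficient cells (squares); Tomm20l, listed at 0 in all WT libraries, is left out. Hspa9 and Timm23 are highest in both groups, and Tomm6 and Timm8a2 lie lowest, at 5.20 and 4.18 normalized counts per kb in WT.

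The TOM complex contributed 9 members, of which 7 were tested, 2 fell and none rose (limma). Over all tested genes 7.97% fell and 10.0% rose, and no complex was tested as a set. Tomm22, the receptor that holds the complex together, had 5199, 4643 and 4543 normalized counts in WT and 3955, 3854 and 3428 in hnRNPL-deficient cells. All 3 hnRNPL-deficient libraries were below all WT libraries, and the log2 difference was -0.36 (95% interval -0.59 to -0.12, adjusted p = 0.0597, limma). Tomm5, a small subunit that steadies the channel, went from 3544, 3642 and 3171 normalized counts to 2688, 2957 and 1998. Its groups were also separate, with a log2 difference of -0.45 (-0.80 to -0.11, adjusted p = 0.0915, limma). Tomm5 passed in 1 of the 6 fits that left out a library, the one without hnRNPL-deficient replicate 2, and its log2 difference was -0.29 without hnRNPL-deficient replicate 3.

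Tomm40, the channel itself, had 7085, 9327 and 8481 normalized counts in WT and 6673, 7064 and 4629 without hnRNPL. WT replicate 1 and hnRNPL-deficient replicate 2 nearly met, and the log2 difference of -0.45 did not pass (adjusted p = 0.134, limma). Tomm20, the receptor for presequences, had 8609, 10286 and 8204 normalized counts against 7289.9, 7774 and 5321, again without overlap and with a log2 difference of -0.42 that did not pass (adjusted p = 0.123, limma). On 5 libraries, without hnRNPL-deficient replicate 2, Tomm40 and Tomm20 passed by DESeq2 (adjusted p = 0.0642 and 0.0588) and not by edgeR (adjusted p = 0.123 and 0.110). Without hnRNPL-deficient replicate 3 their log2 differences were both -0.26 by limma. Tomm70a, the receptor for carrier precursors and chaperone-bound clients, overlapped between groups at 18587, 15218 and 14199.6 against 14573, 12549.9 and 13345 normalized counts, and did not pass (log2 difference -0.24, adjusted p = 0.246, limma).

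Tomm40l, a relative of the channel gene, was the only tested TOM member with a higher mean in hnRNPL-deficient cells, 868 ± 102 against 775 ± 171 normalized counts, and did not pass (adjusted p = 0.555, limma). In the annotation 64.3% of its exon bases are overlapped on the other strand by Nr1i3, and the authors counted reads by strand. Tomm7, a small subunit, spread so widely among mice (374, 750.5 and 533 against 495, 732 and 387 normalized counts) that its log2 difference of -0.03 had an interval from -0.71 to 0.64. Tomm6, another small subunit, lay below the filter at 2.32, 6.92 and 8.41 against 3.61, 2.02 and 5.48 normalized counts. Of its exon bases, 76.0% are shared on the same strand with the annotated readthrough gene Gm21981, which held at most 2.32 normalized counts, and how reads in shared bases were assigned was not given in the sources used here, so the level of Tomm6 is uncertain. Tomm20l, a paralogue of Tomm20, was at 0 in WT and at most 2.7 in hnRNPL-deficient cells, and the antisense RNA Tomm6os had 49.7 ± 15.4 and 48.4 ± 8.31 normalized counts. Tomm34, a cytosolic cochaperone named after TOM, overlapped between groups at 3717 ± 121 and 3371 ± 402.

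In the TIM23 channel group, 2 of 5 members fell and 1 rose (limma), against 7.97% and 10.0% of all tested genes. Timm23, which forms the presequence channel, had 9173, 9415 and 8299.7 normalized counts in WT and 7018, 7218 and 5347 in hnRNPL-deficient cells. Every hnRNPL-deficient library was below every WT library, with a log2 difference of -0.47 (-0.77 to -0.17, adjusted p = 0.0535, limma). It did not pass without WT replicate 1, 2 or 3 (adjusted p = 0.110, 0.160 and 0.107, limma). Its partner Timm17a went from 4546, 4264 and 4076 to 3531, 3419 and 3421 normalized counts, with little spread among the hnRNPL-deficient mice. That log2 difference was -0.31 (-0.52 to -0.11, adjusted p = 0.0606, limma). Timm17a did not pass in any of the 6 fits that left out a library, nor by edgeR or DESeq2 on 5 libraries.

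Timm17b, the X-linked paralogue of Timm17a, had 692, 980.5 and 860.3 normalized counts in WT and 772, 1059 and 618 in hnRNPL-deficient cells. The groups overlapped, and the log2 difference of -0.07 (-0.56 to 0.42) did not pass. Timm50, the receptor that hands presequences to the channel, was lower without overlap, at 2352, 2314 and 2223 against 2038, 2117 and 1745, and did not pass (log2 difference -0.23, adjusted p = 0.217, limma). In the annotation Timm50 lies 0.503 Mb from Hnrnpl on chromosome 7.

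Timm21, which links TIM23 to the TOM complex and to respiratory chain assembly, went the other way. It had 1255, 1179 and 1016 normalized counts in WT and 1574, 1384 and 1497 in hnRNPL-deficient cells, so that the lowest hnRNPL-deficient library exceeded the highest WT library. The log2 difference was 0.37 (0.09 to 0.65, adjusted p = 0.0875, limma). It passed in 1 of the 6 fits that left out a library, the one without WT replicate 1.

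Of the 5 motor members, 1 fell and none rose (limma), against 7.97% and 10.0% of all tested genes. Hspa9, the ATP-driven chaperone that pulls precursors into the matrix, had 31843, 33772 and 28834 normalized counts in WT and 25400.1, 24663 and 20477 in hnRNPL-deficient cells. The groups were separate, with a log2 difference of -0.42 (-0.69 to -0.16, adjusted p = 0.0521, limma). It did not pass without WT replicate 1 or 2 or without hnRNPL-deficient replicate 3 (adjusted p = 0.100, 0.176 and 0.106, limma). Timm44, which tethers Hspa9 to the channel, had 3069.6, 3195 and 2925 against 2764, 2897 and 2490.5 normalized counts. That was a smaller separation, and it did not pass (log2 difference -0.17, adjusted p = 0.303, limma).

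Grpel1, the nucleotide exchange factor of Hspa9, had 2521 ± 142 and 2097 ± 169 normalized counts without overlap and did not pass (adjusted p = 0.144, limma). Dnajc19, a J protein that stimulates Hspa9, had a mean of 1883 ± 341 in WT and 2259.8 ± 265 in hnRNPL-deficient cells and did not pass (adjusted p = 0.287, limma), but passed as higher without WT replicate 1 (log2 difference 0.42, adjusted p = 0.0926). Pam16, which holds that J protein in check, was at 466 ± 112 and 458 ± 107.

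**Figure D3:**
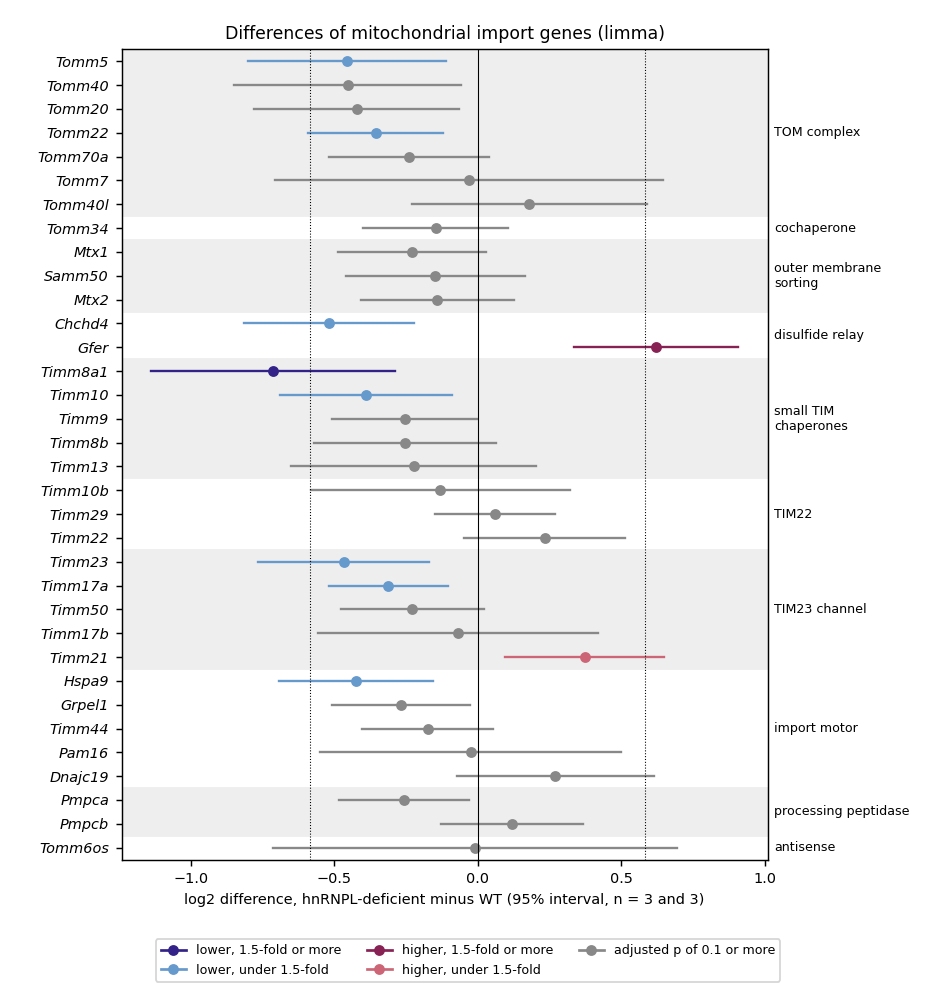
Log2 difference (hnRNPL-deficient minus WT) with its 95% interval from limma for the 34 tested members, grouped by role; dotted lines mark 1.5-fold, and colour marks direction and size for the 10 members with an adjusted p under 0.1. Timm8a1 at -0.71 and Gfer at 0.62 lie beyond the dotted lines, and 24 grey members did not pass.

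The small TIM chaperones, which escort hydrophobic precursors through the intermembrane space, comprised 6 members. Of the 5 tested, all had lower means in hnRNPL-deficient cells and 2 fell, where 52.7% of all tested genes had lower means and 7.97% fell. No group of members was tested as a set. Timm8a1, which works with Timm13, had 2801, 2915 and 2272 normalized counts in WT and 1869, 1867 and 1205 in hnRNPL-deficient cells. The mean was 61.8% of that in WT and the groups were separate, with a log2 difference of -0.71 (-1.14 to -0.29, adjusted p = 0.0433, limma). Its promoter window holds both E-boxes printed for it. The gene is X-linked, and its lowest value was that of hnRNPL-deficient replicate 3. Without that library its log2 difference was -0.50, under 1.5-fold, and without WT replicate 1 or 2 it did not pass (adjusted p = 0.101 and 0.128, limma).

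Timm10, which forms a hexamer with Timm9, went from 957, 1024 and 886 to 799, 746 and 647 normalized counts. Again no hnRNPL-deficient library reached a WT one, with a log2 difference of -0.39 (-0.69 to -0.09, adjusted p = 0.0949, limma). It did not pass in any of the 6 fits that left out a library, nor did Tomm22 and Timm17a.

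Timm9 itself had 1332, 1561 and 1372 normalized counts in WT and 1157, 1235 and 1175 in hnRNPL-deficient cells. The groups did not overlap, and the log2 difference of -0.26 did not pass (adjusted p = 0.180, limma). Timm13 had 716, 791 and 799 against 672, 838 and 504, and Timm8b, a paralogue of Timm8a1, had 1104, 1079.9 and 925 against 974, 881 and 758. Both overlapped and did not pass. Timm8a2, another paralogue of Timm8a1, was below the filter at 2.59 to 5.80 normalized counts in WT and 2.74 to 3.61 in hnRNPL-deficient cells.

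In the TIM22 carrier translocase, none of 3 members passed by limma at an adjusted p under 0.1 or an unadjusted p under 0.05, nor by edgeR or DESeq2 on 5 libraries, while with array weights in limma Timm22 passed as higher. Timm22, its channel, had 593, 589 and 585 normalized counts in WT and 726, 719 and 637 in hnRNPL-deficient cells. All hnRNPL-deficient libraries were above the 3 nearly equal WT ones, and the log2 difference was 0.23 (-0.05 to 0.51, adjusted p = 0.260, limma), and 0.27 with array weights (adjusted p = 0.0983). With array weights 2638 of the 17640 tested genes rose, against 1766 without them. Timm29, which joins the complex to TOM, had 2789.7 ± 25.3 and 2911 ± 159 normalized counts, and its interval of -0.15 to 0.27 on the log2 scale left out a 1.5-fold difference in either direction. Timm10b, the small TIM bound to TIM22, had 223 ± 23.8 and 206 ± 38.4.

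The disulfide relay was the group in which both members passed, in opposite directions. Chchd4, the oxidoreductase that captures incoming proteins, had 2319.9, 2302 and 2085 normalized counts in WT and 1693, 1704 and 1312 in hnRNPL-deficient cells. The mean was 70.2% of that in WT without overlap, with a log2 difference of -0.52 (-0.81 to -0.22, adjusted p = 0.0374, limma). It kept an adjusted p under 0.1 in 5 of the 6 fits that left out a library, and reached 0.119 without WT replicate 2.

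Gfer, the sulfhydryl oxidase that returns Chchd4 to its oxidised state, had 1096, 1226 and 1134 normalized counts in WT and 1756, 2022 and 1567 in hnRNPL-deficient cells. The lowest hnRNPL-deficient library was above the highest WT library, with a mean 155% of that in WT and a log2 difference of 0.62 (0.34 to 0.91, adjusted p = 0.0173, limma). It passed in all 6 fits that left out a library, with log2 differences of 0.53 to 0.71, and fell under 1.5-fold without hnRNPL-deficient replicate 2. The ratio of Chchd4 to Gfer within a library, in normalized counts not corrected for length, was 2.1, 1.9 and 1.8 in WT and 0.964, 0.843 and 0.837 in hnRNPL-deficient cells, with a wide gap between the groups. On counts per kb of exon Gfer was higher in both groups, at 516 against 431 in WT and 799 against 302 in hnRNPL-deficient cells. The order in WT rests on the lengths of all annotated exons together, 5192 bases for Chchd4 and 2231 for Gfer. The lengths of the transcripts expressed were not measured, so which gene is higher in WT is uncertain.

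None of the 3 outer membrane sorting genes passed, by limma at either an adjusted p under 0.1 or an unadjusted p under 0.05, or by edgeR or DESeq2 on 5 libraries. Samm50, the core of the SAM complex, had 2132, 2452 and 2140.5 normalized counts in WT and 2145, 2281 and 1680.4 in hnRNPL-deficient cells. These overlapped, with a log2 difference of -0.15 (-0.46 to 0.16). The metaxins Mtx1 and Mtx2, its partners, had 1604 ± 10.1 against 1373 ± 142 and 1704 ± 145 against 1546 ± 130.5 normalized counts. Mtx1 was lower without overlap (log2 difference -0.23, adjusted p = 0.228, limma), while Mtx2 overlapped between groups.

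Neither subunit of the processing peptidase passed (adjusted p = 0.138 and 0.514, limma), and neither did by edgeR or DESeq2 on 5 libraries. Pmpca, the substrate-binding subunit, had 6776, 6137 and 5736 normalized counts in WT and 5462, 5202 and 4918 in hnRNPL-deficient cells, without overlap and with an unadjusted p of 0.0311. Pmpcb, the catalytic subunit, had 2717, 3093 and 2606 against 3148, 3192 and 2796, which overlapped with a higher mean in hnRNPL-deficient cells.

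Ratios of members within a library do not depend on how libraries were scaled. Of 11 ratios, 7 did not overlap between groups, each at an exact permutation p of 0.1, the smallest that 3 against 3 allows, and an adjusted p of 0.157 over the 11. The pairs were chosen with results of these data known, some of them joining a gene that fell to one that did not, and no background share was computed for ratios, so the count of 7 is a description. The largest was Chchd4 to Gfer, with a log2 difference of -1.14. Timm22 to Timm23, the carrier against the presequence channel, went from 0.0647, 0.0625 and 0.0705 to 0.103, 0.0996 and 0.119, a log2 difference of 0.70. Tomm40 to Tomm40l had a mean of 10.8 ± 0.931 in WT against 7.01 ± 0.862 without hnRNPL, which is -0.63 on the log2 scale.

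The other 4 separated ratios had lower means in hnRNPL-deficient cells, with log2 differences of -0.49 for Timm8a1 to Timm13, -0.46 for Timm8a1 to Timm8b, -0.38 for Pmpca to Pmpcb and -0.34 for Grpel1 to its paralogue Grpel2. Timm17a to Timm17b, Timm9 to Timm10, Mtx1 to Mtx2 and Tomm20 to Tomm70a overlapped. Timm9 to Timm10, partners in 1 hexamer, stayed between 1.39 and 1.82 in all libraries.

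**Figure D4:**
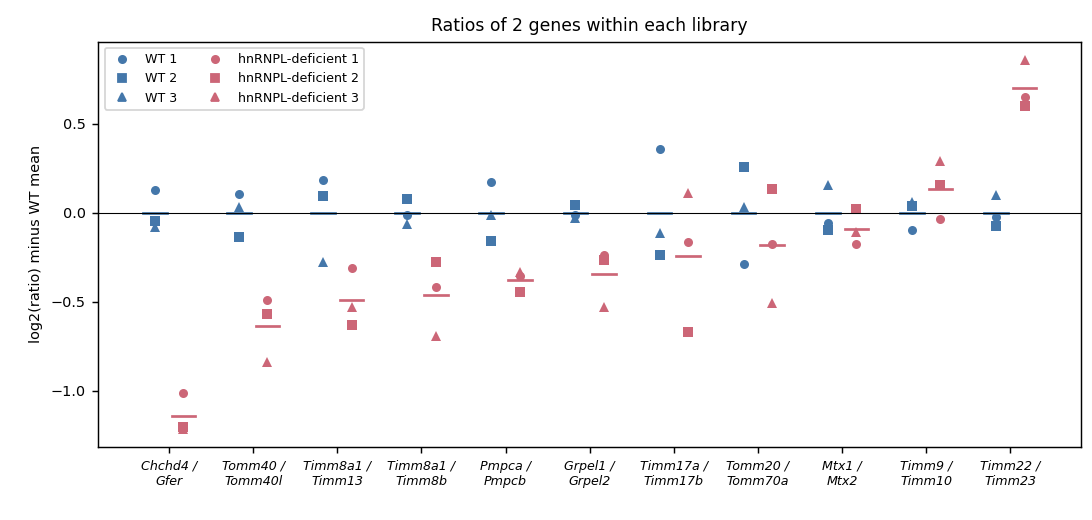
Log2 ratio of the normalized counts of 2 genes in each library, minus the WT mean of that ratio, for the 11 ratios; blue marks are WT, red marks hnRNPL-deficient libraries, and short lines are group means. Chchd4 to Gfer lies lowest in hnRNPL-deficient cells at -1.14 and Timm22 to Timm23 highest at 0.70.

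Genes that work beside the translocases were counted in the same fit, in which 7.97% of all tested genes fell and 10.0% rose. Of 11 genes for cytosolic delivery and clearance of precursors, 4 fell and none rose. Hspa8, the constitutive cytosolic Hsp70, fell by 0.70 on the log2 scale (adjusted p = 0.0176, limma), and Hsp90aa1, an Hsp90 that hands precursors to Tomm70, fell by 0.62 (adjusted p = 0.0565, limma). Their J protein partners Dnaja1 and Dnajb1 fell by 0.43 and 0.39. The median log2 difference of this list was -0.36.

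Of 16 chaperones, proteases and prohibitins inside mitochondria, 4 fell and none rose, with a list median of -0.24. Hspd1, the matrix chaperonin that folds imported proteins, went from 58224, 50930.2 and 43874 to 34188, 30863 and 25969.6 normalized counts, a log2 difference of -0.75 (adjusted p = 0.0142, limma). Its groups were separate. Htra2, a protease of the intermembrane space, fell by 0.60, Afg3l2, a subunit of the m-AAA protease of the inner membrane, by 0.55 and the prohibitin Phb2 by 0.44. Immt, the scaffold of the cristae junction complex MICOS, fell by 0.27 and was the only one of 8 tested MICOS genes that passed (adjusted p = 0.0931, limma). Of 16 other import and insertion factors, only the peptidase Mipep, which trims some presequence proteins a further time, passed, and it fell by 0.31 (adjusted p = 0.0891, limma). The list median of those 16 was -0.03.

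Of the other nuclear-encoded mitochondrial genes, 3 larger sets differed less on the median. The chaperones, proteases and prohibitins above, at -0.24, did not, and the MICOS genes stood at -0.19. Of 77 tested mitochondrial ribosomal proteins 4 fell and 1 rose, with a median log2 difference of -0.07. Of 81 respiratory chain subunits 1 fell and 3 rose, with a median of -0.05. Of 40 Slc25 carriers, which are clients of TIM22, 3 fell and 4 rose, with a median of -0.07. The corresponding figures for the import members were 8 and 2 of 34 and -0.23. Over all tested genes 7.97% fell and 10.0% rose, with a median of -0.03. The difference between these groups of genes was not tested.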

How the data were processed

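RNA-seq libraries of 3 WT and 3 hnRNPL-deficient mice, grouped by the submitters' labels, were analysed. The authors trimmed reads with fastp 0.23.1, aligned them with STAR 2.7.9a to mm10, counted them by strand with featureCounts on GENCODE vM23 and divided the counts by DESeq2 1.38.2 size factors. The deposited values are these normalized counts, one signal value per gene and mouse. Beside them stand the authors' deposited DESeq2 results (log2 fold changes and standard errors, a test statistic or score, and p-values before and after adjustment), none of them used.

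Genes averaging 10 or more normalized counts were tested two-sided with limma 3.58.1 (R 4.3.3) after adding 1 and taking log2, using its mean-variance trend and Benjamini-Hochberg adjustment over 17640 genes. Fold changes on this scale understate those of low genes. A gene passed at an adjusted p under 0.1. Whole reads were recovered for 100% of values within a tolerance of 0.01, but the automatic test did not read hnRNPL-deficient replicate 2, so edgeR 4.0.16 and DESeq2 1.42.0 were alternatives on 5 libraries. Exon lengths, overlaps and distances come from GENCODE vM21 on GRCm38, an earlier release than the authors', which held all 37 members. Reads shared with processed pseudogenes were not assessed.

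The members, gene lists, ratios and motifs were chosen with earlier results of these data known. Every member is named, with per-library values for those that passed and for the main channel, receptor, motor, chaperone and peptidase subunits. At most 4 genes of any other list are named, by smallest adjusted p, beside genes that check the sample. The limma p-values weigh each group difference against the spread between these mice, moderated with the mean-variance trend over all tested genes. Those of the ratios come from exact permutation. The code was tested on simulated data. Alternatives changed the pseudocount, filter, scaling, trend, weights, covariates, tool, threshold and libraries. One B cell marker is not reported here.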

Additional observations from a re-analysis of the deposited data

How the results depend on the processing

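Gfer kept an adjusted p under 0.1 in every alternative tried, with a largest value of 0.0741, and Chchd4 in all but the fit without WT replicate 2. Of the 10 members that passed, edgeR on 5 libraries kept 7 and DESeq2 on 5 libraries kept 8. Both lost Timm10 and Timm17a, and edgeR also lost Tomm22.

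The count of members that fell, 8 as reported, was 5 with no filter on low values and 1 with no mean-variance trend. It was 5 by edgeR on 5 libraries, 2 at an adjusted p under 0.05 and 0 to 5 when 1 library was left out. Over all tested genes 7.97% fell as reported, 3.83% with no filter, 5.84% with no trend and 5.24% by edgeR. At an adjusted p under 0.05, 826 of the 17640 genes fell. The count that rose, 2 as reported, was 1 with no filter and 1 with no trend. With array weights it was 4 (Timm22 and Dnajc19 beside the reported pair). It was 1 at an adjusted p under 0.05 and 1 to 3 when 1 library was left out. Of the 17640 tested genes, 1766 rose as reported, 1619 with no trend, 2638 with array weights and 1177 at an adjusted p under 0.05. The 1 member that also reached 1.5-fold downward was lost (0) with no trend and with array weights, and was 0 to 1 when 1 library was left out. The 1 upward was lost (0) by edgeR and by DESeq2 on 5 libraries, which lack hnRNPL-deficient replicate 2. It was also 0 by limma without that library, and 1 by limma when any other library was left out. At an unadjusted p under 0.05, limma with no trend gave 8 members on the lower side (11.1% of all tested genes) and with array weights 12 (15.2%), and on the higher side edgeR and DESeq2 each gave 3 (13.7% and 12.6%). Causes were not tested.

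With the replicate number as a block, 14 members fell and 3 rose, while over all genes 16.5% fell and 16.4% rose. The numbers were not taken to pair the mice. Deviations of same-numbered libraries correlated at 0.43, 0.32 and 0.07. WT replicates 1 and 2 correlated best with the same number, and WT replicate 3 with hnRNPL-deficient replicate 2 (0.31). WT replicate 3 and hnRNPL-deficient replicate 2 were the libraries with high Xist, and whether the numbers mark pairs was not tested. The median log2 difference ranged from -0.27 to -0.15, and equal library totals moved the median of all genes from -0.03 to 0.03.

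Differences near 0 changed sign. Pam16 was 0.031 with equal totals, 0.011 with array weights and -0.19 to 0.16 when 1 library was left out. Tomm7 was 0.024 with equal totals and -0.28 to 0.22 with 1 library left out, Tomm6os 0.044 and -0.16 to 0.23, and Timm17b -0.27 to 0.11 with 1 library left out. Timm10b was 0.0062 by edgeR. The 95% intervals of 7 members that did not pass reach 1.5-fold, so a difference of that size is within the error of these libraries.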
